A study of Arabidopsis thaliana with 18 samples.

Results

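Roots and shoots of Arabidopsis thaliana seedlings that had been kept without phosphate were compared with each other. The members are 6 of the 18 arrays of the series, chosen by the tissue and the phosphate dose in their titles. Col-0 seedlings grew for 5 days in hydroponic medium with sucrose and then for 7 days at 0, 1.25 or 20 mM phosphate, called P0, P1.25 and P20. Total RNA of root and of shoot was hybridised separately to AraGene 1.0 ST arrays, 3 arrays for each tissue and dose. Root P0 is set against shoot P0 throughout, and P1.25 is the control dose of the study. The study's methods describe the 3 arrays of a group as independent biological experiments.

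Roots take up water and ions through an epidermis with root hairs, and the endodermis inside it seals the cell walls with the Casparian strip and suberin. Leaves fix carbon in chloroplasts, exchange gas through stomata and export sucrose. Plants without phosphate take up and recover more of it with phosphate transporters, acid phosphatases and RNases, replace membrane phospholipids with galactolipids and sulfolipids, and often accumulate anthocyanin and starch in leaves.

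Values are log2 expression levels of 38408 transcripts, and a difference is root minus shoot on that scale with its standard error (SE). A transcript was called where limma gave a Benjamini-Hochberg adjusted p under 0.1 and the difference was over 2-fold. Of all transcripts, 17841 had 1 gene name, and the adjusted p was always taken over all 38408. In root P0 against shoot P0, 4891 transcripts were called, 12.7% of those tested. Of these, 2163 (5.63%) were higher in root and 2728 (7.1%) were higher in shoot. The median difference of all transcripts was 0.03. Differences between doses within a tissue share the P0 arrays with the tissue difference, so they are set beside it and not counted as separate support. The 3 root P0 arrays and the 3 shoot P0 arrays did not overlap for 48.1% of all transcripts and for 98.6% of the called ones.

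The differences reached further on the shoot side. At P0, 2 called transcripts were higher in root by more than 4 log2 units and 67 were higher in shoot by that much. Above 3 log2 units there were 53 and 271. Replicate spread was small, with a median SD of 0.17 in root P0 and 0.15 in shoot P0, against 0.21 in root P1.25 and 0.26 in shoot P1.25. Array medians were 5.44 to 5.48 at P0 and 5.55 to 5.58 at P1.25. The third P1.25 arrays held the largest share of their groups' squared deviation, 41.9% in root and 42.2% in shoot.

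**Figure D1:**
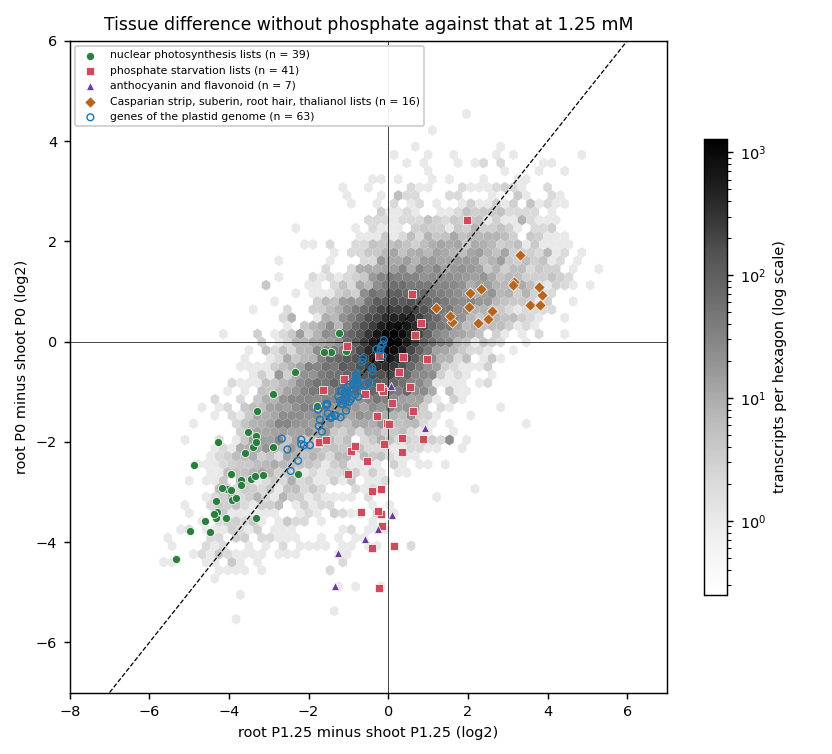
Root minus shoot (log2) of every transcript at P0 on the vertical axis against the same difference at P1.25 on the horizontal axis, with darker hexagons for more transcripts (log scale), coloured marks for the named gene groups and a dashed line where both differences are equal. The 16 root identity genes lie below the dashed line on the right, most phosphate starvation genes lie below 0 at P0 near the vertical axis, and the plastid genes follow the dashed line.

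The tissue labels were checked against marker genes. All 13 measured shoot markers were called higher in shoot P1.25 and 11 of them in shoot P0, and their summed level on the log2 scale was 9.26 to 9.28 in root P0, against 12.11 to 12.16 in shoot P0. Root markers were different. None of the 9 measured of 30 listed was called higher in root P0, while 9 were called higher in root P1.25, and 8 of the 9 had a tissue difference that was not the same at both doses. Their summed log2 level was 13.55 to 13.59 in root P0 and 12.58 to 12.63 in shoot P0, against 13.46 to 13.82 in root P1.25 and 11.98 to 12.16 in shoot P1.25. Most of that sum was PYK10, a very abundant glucosidase. Without it, the other 8 summed to 9.96 to 10.06 in root P0 and 9.16 to 9.35 in shoot P0, against 10.95 to 11.61 in root P1.25 and 7.88 to 8.44 in shoot P1.25. Of the 9 markers, 6 were called lower in root P0 than in root P1.25 and 3 were called higher in shoot P0 than in shoot P1.25. All markers with these calls were named only through the study's gene tables, whose rows were chosen for change at P0. EXPA7, EXPA18 and PYK10, named by the platform, had neither call. These counts are therefore no independent evidence of a change between doses. The summed signal of the measured root markers was higher in shoot P0 than in shoot P1.25, and without PYK10 lower in root P0 than in root P1.25. The same limit holds for the sum without PYK10, since most of its markers were named through those tables. The part of root tissue in the shoot samples in this was not tested. In whole organs, fewer cells of a type and less RNA per cell cannot be told apart.

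Most nuclear genes of photosynthesis were lower in root P0. Of 188 list genes measured here and below, 55 were named by the platform and the others only through the study's own gene tables. Rows of those tables were chosen on these arrays for change at P0. List counts are therefore no independent evidence of a direction or of a change between doses. Of 1119 transcripts named through those tables, 454 (40.6%) were called at P0, against 12.8% of those named by the platform. Of 39 measured members of the lists for light harvesting, photosystems, Calvin cycle, photorespiration and chlorophyll synthesis, 33 were called higher in shoot P0 and none in root P0. Their median difference was -2.65, against 0.03 over all transcripts. LHCB1.2, a chlorophyll-binding antenna protein of photosystem II, had 3.57, 3.72 and 4.05 in root P0, against 7.94, 8.14 and 8.29 in shoot P0. The tissues were separated by far more than their spread, with a difference of -4.34 ± 0.43 (SE; adjusted p = 3.19e-06, limma with Benjamini-Hochberg adjustment), 20.3-fold lower in root. The deposited values carry no call of signal above background, so a fold against a low level, such as this one and those of RBCS2B and GSTF12 below, has no known floor.

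All 11 measured subunits and carriers of the photosystems were called higher in shoot P0, with a median of -3.12. FNR2, which passes electrons from ferredoxin to NADP, differed by -3.80 ± 0.26, and PSAH2, a photosystem I subunit, by -3.52 ± 0.29. All 7 Calvin cycle genes were called as well, with a median of -3.44. RBCS2B, a small subunit of Rubisco, had 3.76, 3.48 and 3.60 in root P0, against 7.41, 7.22 and 7.52 in shoot P0, which is a 13.6-fold lower level in root. FBA2, a plastid aldolase, differed by -3.52 ± 0.26, and SBPASE, the cycle's sedoheptulose bisphosphatase, by -3.44 ± 0.30. In light harvesting 8 of 11 members were called, LHCA2 of photosystem I among them at -2.77 ± 0.29, and in photorespiration 3 of 3, with the hydroxypyruvate reductase HPR at -3.19 ± 0.27.

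Of 7 chlorophyll synthesis genes, 4 were called higher in shoot P0. PORB, a light-dependent protochlorophyllide reductase, differed by -2.92 ± 0.31, GUN5, a subunit of magnesium chelatase, by -2.00 ± 0.25, GUN4, which activates that chelatase, by -1.80 ± 0.45, and CH1, which makes chlorophyll b, by -1.38 ± 0.33. These genes differed less between the tissues at P0 than at P1.25. The list's median was -1.38 at P0 and -3.30 at P1.25, and 6 of 7 members had a called change of the tissue difference (those of GUN4 and PORB were lost on leaving out some single arrays, in either tissue). CH1 averaged 6.74 ± 0.17 in root P0, against 8.12 ± 0.11 in shoot P0, while it averaged 6.14 ± 0.17 in root P1.25, against 9.44 ± 0.85 in shoot P1.25 (SD, n = 3 each). Over all 39 nuclear photosynthesis genes the tissue difference was smaller at P0 in 37, and called as changed in 13, beside 17.1% of all transcripts. None of the 39 was called higher in root P0 than in root P1.25, and 5 were called lower there. In shoot P0, 34 of the 39 were called lower than in shoot P1.25 and none higher.

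Genes of the plastid genome, which encode core subunits of the photosystems, the ATP synthase, Rubisco's large subunit and the plastid's own ribosomes, were taken as a group by their chromosome after values were seen. Of 63 measured, 36 were called higher in shoot P0, beside 7.1% of all transcripts, and none in root P0, with differences of -2.58 to 0.03. The 3 root arrays and the 3 shoot arrays did not overlap for 61 of them, beside 48.1% of all transcripts. Their median difference was -1.07 at P0 and -1.06 at P1.25. In 1 of 63 the tissue difference was called as changed, beside 17.1% of all transcripts. The nuclear genes had medians of -2.65 at P0 and -3.69 at P1.25, and whether the 2 groups differ in this was not tested. The median level of the plastid genes was 11.53 in root P0 and 12.73 in shoot P0. That of the nuclear genes was 5.30 and 7.96. Whether these levels bear on the size of the differences was not tested.

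**Figure D2:**
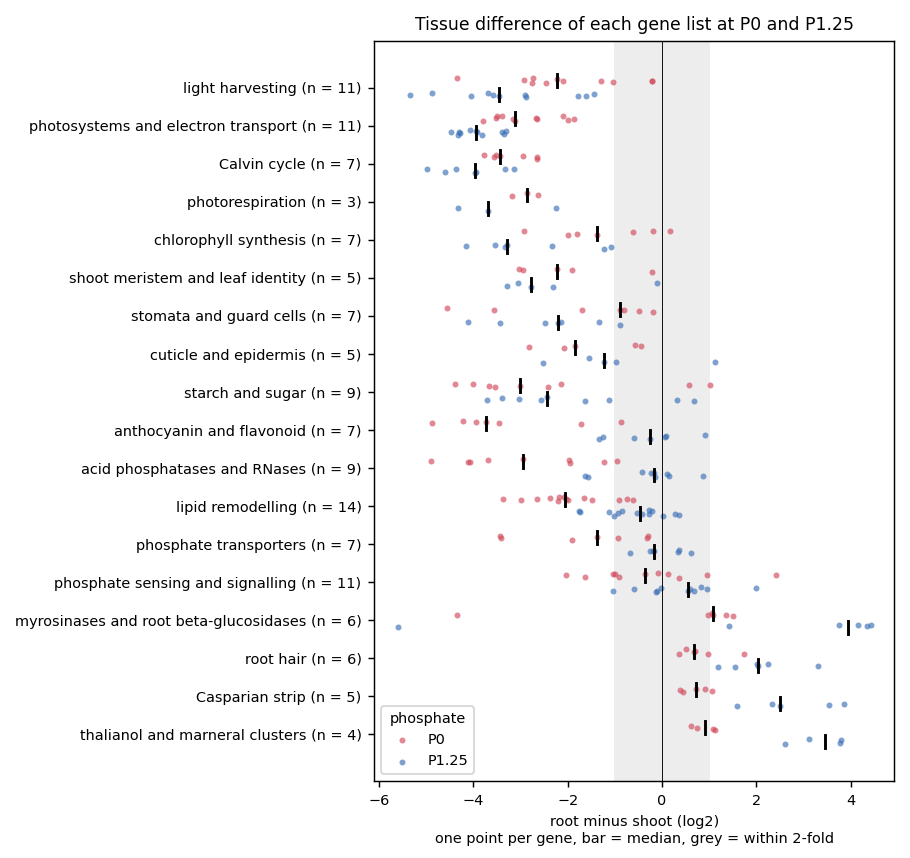
Root minus shoot (log2) for the genes of each list, at P0 and at P1.25, with one point per gene, a bar at the median and a grey band within 2-fold. Photosynthesis lists lie on the shoot side at both doses, the root hair, Casparian strip and triterpene lists have medians inside the grey band at P0 and to its right at P1.25, and the phosphatase, lipid and phosphate transporter lists have medians left of the band at P0.

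Most leaf development genes were higher in shoot at both doses. Of 5 measured genes of shoot meristem and leaf identity, 4 were called higher in shoot, and no change of the tissue difference was called in the 5. The 4 called genes were YAB2, YAB3 and YAB5, YABBY factors that give lateral organs their lower side, at -3.04, -2.23 and -1.92, and the leaf growth regulator TCP2 at -2.95. Within a tissue, TCP2 was called lower in root P0 than in root P1.25 (log2 change -1.14). YAB5 was called lower in shoot P0 than in shoot P1.25 (-1.11). YAB2 had 3.92, 3.38 and 3.89 in root P0, against 6.80, 6.71 and 6.80 in shoot P0. The shoot arrays lay within a narrow range, the second root array was lowest, and the tissues did not overlap.

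Stomatal genes had 3 members of 7 called higher in shoot P0, beside 7.1% of all transcripts. FAMA, the factor that ends division in the guard cell lineage, had 4.26, 4.44 and 4.12 in root P0, against 8.91, 8.78 and 8.84 in shoot P0, a difference of -4.57 ± 0.20 (adjusted p = 2.95e-09, limma). It was also the fifth largest shoot-side difference among transcripts of 1 platform gene. The guard cell anion channel SLAC1 differed by -3.55 ± 0.25. SPCH, which starts the same lineage, differed by -1.69 ± 0.25 at P0 and by -3.43 at P1.25, a change of 1.74 ± 0.36 (adjusted p = 0.00588, limma), and was lower in shoot P0 than in shoot P1.25 by a log2 change of -1.72. Of the cuticle and epidermis list, 3 of 5 were called higher in shoot P0, namely the epidermal homeodomain factor PDF2 at -2.83, the epidermal gene PDF1 at -2.07 and the wax ester synthase WSD1 at -1.84.

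Root identity genes had small differences at P0. The root meristem, cap and stele list is not in this group and is given below. Over the lists for Casparian strip, suberin, root hair and the thalianol and marneral clusters, 5 of 16 measured genes were called higher in root P0, beside 16 of 16 in root P1.25. The median was 0.73 at P0 and 2.56 at P1.25, and the difference was smaller at P0 in all 16, called as such in 15. CASP1, a scaffold protein of the Casparian strip, had 8.78, 8.85 and 8.84 in root P0, against 7.91, 7.92 and 7.87 in shoot P0. The root arrays were above the shoot arrays without overlap, but the difference of 0.92 ± 0.28 was under 2-fold. At P1.25 the same gene averaged 10.16 ± 0.14 in root P1.25, against 6.31 ± 0.47 in shoot P1.25 (SD, n = 3 each), a difference of 3.85. The change between the doses was -2.93 ± 0.40 (adjusted p = 0.000379, limma), with CASP1 lower in root P0 than in root P1.25 by a log2 change of -1.34 and higher in shoot P0 than in shoot P1.25 by 1.59.

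PER64, a peroxidase of Casparian strip lignin, differed by 0.73 ± 0.31 at P0 and 3.55 at P1.25, and GSO1, the receptor kinase that seals the strip, by 1.05 ± 0.19 and 2.33. GSO1 sat at the 2-fold limit, and its call was lost without root P0 replicate 3, shoot P0 replicate 1 or shoot P0 replicate 2, with values of 0.97 to 0.99. MYB92, a suberin regulator, differed by 1.18 ± 0.26 at P0. In root hairs, the oxidase RHD2 was called at 1.73 ± 0.35, and the expansin EXPA18 was not, at 0.98 ± 0.23. EXPA18 passed 2-fold without root P0 replicate 1, shoot P0 replicate 1 or shoot P0 replicate 2, at 1.0 to 1.05. In the triterpene clusters, CYP705A12 was called at 1.13 ± 0.34 and CYP71A16 at 1.09 ± 0.32, while THAD1 was not, at 0.74 ± 0.34. The CYP705A12 call was lost without shoot P0 replicate 1 (1.0), and that of CYP71A16 without root P0 replicate 2 (0.95). Of the 16 genes, 9 were called lower in root P0 than in root P1.25, and 7 were called higher in shoot P0 than in shoot P1.25. Only 4 of the 16 were named by the platform, and none of these 4 had either call. The others were named through the study's tables, whose rows were chosen for change at P0, so these counts are no independent evidence. Apart from PYK10, the measured root markers above are themselves among these 16 genes, so their summed level is no separate observation. The part of root tissue in the shoot samples was not tested.

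Of the root meristem, cap and stele list, 1 of 3 was called higher in root P0, beside 5.63% of all transcripts. It was UPB1, a regulator of the change from division to elongation at the root tip, at 1.27 ± 0.24. The other members were called at neither dose, LHW at 0.48 (P0) and 0.65 (P1.25) and ACR4 at -0.62 and -0.75. No change of the tissue difference was called in these 3, which are not among the 16 genes above. Myrosinases and root beta-glucosidases, which release defence compounds from glucosides, included 3 members called in root P0 and 1 in shoot P0 of 6. The shares over all transcripts were 5.63% and 7.1%. TGG2, a myrosinase of aerial organs, had 6.59, 6.54 and 6.57 in root P0, against 10.92, 10.86 and 10.94 in shoot P0, and was called lower in root, with a difference of -4.34 ± 0.38. BGLU21, a root beta-glucosidase, had 12.13, 12.12 and 12.15 in root P0, against 11.02, 11.15 and 11.05 in shoot P0, a difference of 1.06 ± 0.43. Its P1.25 levels were 12.36, 12.34 and 11.88 in root P1.25, against 7.63, 6.68 and 8.98 in shoot P1.25, so the shoot P1.25 arrays varied widely and were all below the shoot P0 arrays. BGLU35 at 1.51 ± 0.52 and BGLU34 at 1.36 ± 0.55 had larger differences at P1.25, 4.17 and 3.75. Leaving out any 1 of the 6 P0 arrays ended the calls of BGLU21 (1.03 to 1.1) and BGLU34 (1.27 to 1.49), and that of BGLU35 ended without root P0 replicate 2 (1.43) or shoot P0 replicate 2 (1.49). PYK10, the main root endoplasmic reticulum body glucosidase, was not called, at 0.97 ± 0.12.

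**Figure D3:**
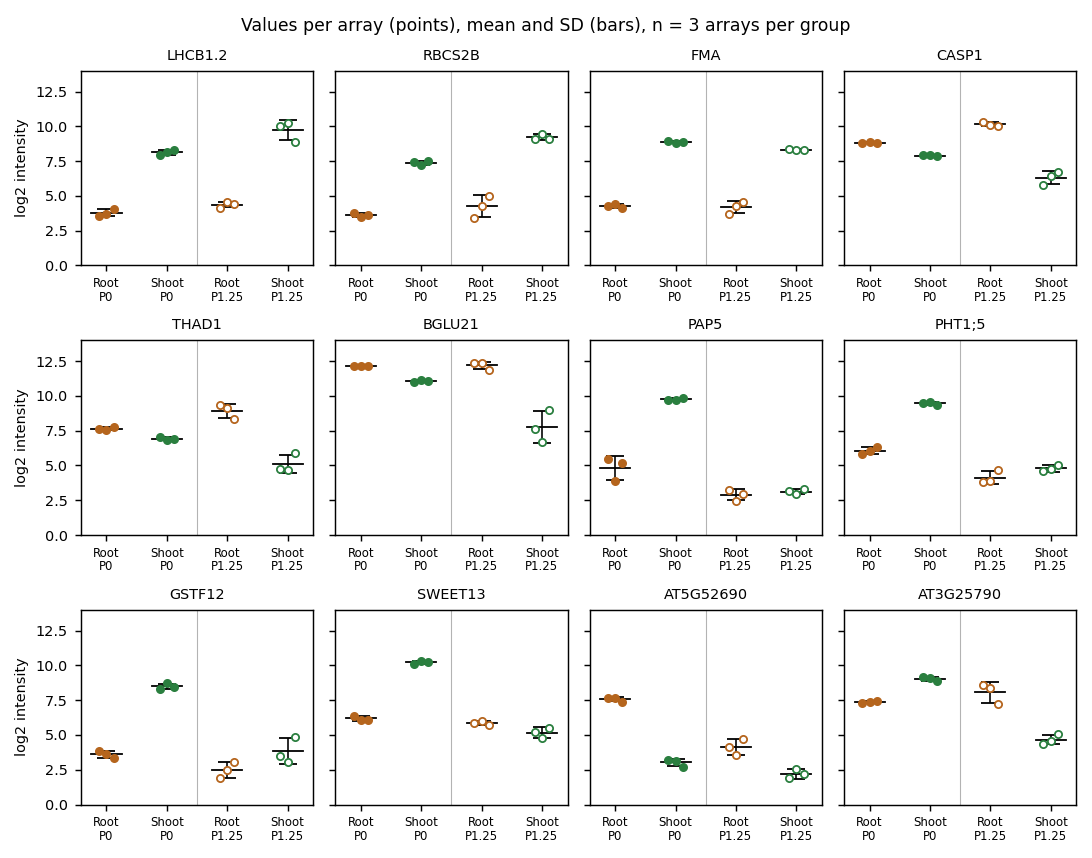
Log2 level of selected genes on each array, root P0 left of shoot P0 and root P1.25 left of shoot P1.25, with points for arrays and bars for the mean and SD (n = 3 each), FMA being FAMA. CASP1 lies close together in root P0 and shoot P0 and far apart at P1.25, while PAP5 and SWEET13 are separated between the tissues at P0.

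Phosphate starvation genes were mostly higher in shoot P0. Of 41 measured members of the lists for phosphate transporters, signalling, lipid remodelling, and acid phosphatases and RNases, 26 were called higher in shoot P0 and 1 in root P0, with a median of -1.65. At P1.25, 7 were called higher in shoot and 1 in root, with a median of -0.18, and in 26 the tissue difference was called as changed. All but 2 of these 41 genes were named only through the study's tables. Compared with the same tissue at P1.25, 34 of 41 were called higher in root P0 and 39 of 41 in shoot P0. Rows of those tables were chosen for change at P0, so these counts follow largely from how the genes came to be named.

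PAP5, a purple acid phosphatase, had 5.46, 3.87 and 5.18 in root P0, against 9.68, 9.71 and 9.85 in shoot P0. The second root array was lowest, and all shoot arrays were over 9, a difference of -4.91 ± 0.41 and a 30.1-fold lower level in root. It averaged 2.89 ± 0.40 in root P1.25, against 3.12 ± 0.19 in shoot P1.25 (SD, n = 3 each). RNS1, a secreted RNase that recovers phosphate from RNA, had 5.81, 5.87 and 5.65 in root P0, against 9.87, 9.79 and 10.03 in shoot P0, a difference of -4.12 ± 0.27 (adjusted p = 7.35e-08, limma). PAP24 and PAP14, further acid phosphatases, differed by -4.07 ± 0.24 and -3.69 ± 0.21. In this list 8 of 9 were called higher in shoot P0, with a median of -2.94 at P0 and -0.18 at P1.25.

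Lipid remodelling had 11 of 14 members called higher in shoot P0, with a median of -2.06. GDPD6, a glycerophosphodiester phosphodiesterase, had 4.35, 4.2 and 4.02 in root P0, against 7.62, 7.58 and 7.50 in shoot P0, and it was called higher in shoot P0 than in shoot P1.25 (3.79) but not between the root doses (0.68). PEPC1, a phosphoethanolamine and phosphocholine phosphatase, had 6.79, 6.79 and 6.82 in root P0, against 9.78, 9.84 and 9.74 in shoot P0. The galactolipid synthases MGD2 and MGD3 differed by -2.64 ± 0.14 and -2.38 ± 0.26. MGD3 was higher at P0 than at P1.25 in root (log2 change 4.23) and more so in shoot (6.08).

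Of the phosphate transporters, 4 of 7 were called higher in shoot P0. PHT1;7 had 6.19, 6.44 and 5.28 in root P0, against 9.23, 9.42 and 9.56 in shoot P0, and PHT1;5, which moves phosphate between source and sink organs, had 5.85, 6.06 and 6.29 in root P0, against 9.51, 9.56 and 9.36 in shoot P0. PHT1;8 differed by -1.92 ± 0.15 and PHT1;4, a root uptake transporter, by -1.39 ± 0.20. PHT1;4 was higher at P0 than at P1.25 in both tissues, by 3.01 in root and 5.01 in shoot. Its tissue difference at P1.25 was 0.62 and was not called.

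Among phosphate sensing and signalling genes, 3 of 11 were called higher in shoot P0 and 1 in root P0, beside 7.1% and 5.63% of all transcripts. SPX3, a phosphate sensor protein, had 8.89, 9.09 and 8.80 in root P0, against 10.91, 11.02 and 10.96 in shoot P0, the noncoding RNA IPS1, which sequesters the microRNA miR399, differed by -1.63 ± 0.19, and SPX1 by -1.05 ± 0.26. ALMT1, which releases malate from root tips, was the member called higher in root. It had 8.52, 8.44 and 8.22 in root P0, against 6.10, 5.87 and 5.94 in shoot P0, a difference of 2.42 ± 0.17 (adjusted p = 1.5e-07, limma), and one of 1.98 at P1.25.

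Most anthocyanin genes were higher in shoot P0. Of 7 measured members, 6 were called higher in shoot P0, with a median of -3.74 at P0 and -0.25 at P1.25. GSTF12, which carries anthocyanins toward the vacuole, had 3.84, 3.67 and 3.33 in root P0, against 8.32, 8.70 and 8.43 in shoot P0, a 29.3-fold lower level in root. AT5MAT, an anthocyanin malonyltransferase, and UF3GT, an anthocyanin xylosyltransferase, differed by -3.95 ± 0.26 and -3.74 ± 0.29. DFR, dihydroflavonol reductase, differed by -4.21 ± 0.86, while its change from P1.25 was -2.95 ± 1.22 and was not called (adjusted p = 0.141, limma).

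Starch and sugar transport genes were also on the shoot side, 7 of 9 of them called. GBSS1, the granule-bound starch synthase, had 7.04, 6.98 and 6.99 in root P0, against 11.35, 11.42 and 11.41 in shoot P0, and APL3, a subunit of ADP-glucose pyrophosphorylase, differed by -3.55 ± 0.16. SWEET13, a sucrose exporter of the phloem, had 6.37, 6.10 and 6.10 in root P0, against 10.07, 10.29 and 10.26 in shoot P0, a difference of -4.02 ± 0.21. At P1.25 it averaged 5.84 ± 0.14 in root P1.25, against 5.17 ± 0.37 in shoot P1.25 (SD, n = 3 each), and its tissue difference changed by -4.69 ± 0.30 (adjusted p = 1.48e-06, limma). SWEET11, of the same function, was high in shoot at both doses, at -3.67 ± 0.13 at P0 and -2.58 at P1.25. In the family of 15 SWEET transporters, gathered after values were seen, 6 were called higher in shoot P0 and none in root P0. The shares over all transcripts were 7.1% and 5.63%. At P1.25, 6 of the family were called higher in shoot and 2 in root. SWEET10 had a further large difference at P0, -4.23 ± 0.25.

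Of 9 nitrogen, potassium and sulphate transport genes, 1 was called, beside 12.7% of all transcripts, the phloem nitrate transporter NRT1.7 at -3.25 ± 0.25. Of 9 aquaporins, 1 was called, NIP2;1 at 2.76 ± 0.80, which is known from roots and low oxygen. Of 11 iron genes, 2 were called higher in root P0 and 2 in shoot P0, beside 5.63% and 7.1% of all transcripts. NAS3, a nicotianamine synthase, differed by -3.58 ± 0.29 and the iron store ferritin FER1 by -1.03 ± 0.27, and the coumarin exporter ABCG37 differed by 1.66 ± 0.54 and NAS1 by 1.12 ± 0.46. The other 7 iron genes, the uptake genes IRT1 and FRO2 among them, were not called. The NAS1 call was lost on leaving out any 1 of the 6 arrays (1.06 to 1.18) and that of FER1 under quantile normalization (-0.99).

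Ethylene synthesis and signalling had 1 call in each direction of 8 genes, beside 5.63% (root) and 7.1% (shoot) of all transcripts. So few calls give no result about the list as a whole. Both called genes are ACC oxidases, the last step of ethylene synthesis. ACO1 had 10.32, 10.26 and 10.31 in root P0, against 7.21, 7.17 and 7.38 in shoot P0, and EFE had 9.14, 9.26 and 9.11 in root P0, against 10.50, 10.42 and 10.66 in shoot P0. Of 3 indole glucosinolate genes, 1 was called, the regulator MYB122 at 1.61 ± 0.32, beside 12.7% of all transcripts. Of 2 aliphatic glucosinolate genes none was, with AOP3 at -0.54 and MYB29 at -0.54. No gene was called at P0 of 4 in the clock list, with CCA1 at -0.72 and ELF4 at 0.56, and none of 3 in DNA replication, with PCNA1 at 0.99 ± 0.41 and MCM5 at 0.79 ± 0.23. At P1.25 the CCA1 difference was -2.70 and called. PEX4, a gene used as a reference in expression studies, differed by 0.07 ± 0.13 with overlapping arrays.

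Beyond the lists, the largest shoot-side difference of a platform-named gene was that of PDF1.2, a plant defensin induced by jasmonate and ethylene. It had 2.91, 2.37 and 2.74 in root P0, against 8.01, 8.37 and 8.36 in shoot P0, with a difference of -5.58 ± 0.82 (adjusted p = 0.000123, limma), and its near copy PDF1.2b differed by -4.43 ± 0.68. The mean of PDF1.2 in root P0 was above only 8.07% of all transcripts, and was not shown to exceed background, so no fold is given. The array may not tell such copies apart. AT1G09500 had 3.25, 2.6 and 2.98 in root P0, against 7.92, 7.97 and 7.88 in shoot P0, and AT2G34810, annotated as an FAD-binding protein, had 5.99, 6.41 and 6.13 in root P0, against 10.80, 10.76 and 10.77 in shoot P0. Both were higher in shoot P0 than in shoot P1.25, by 4.39 and 4.01. Further shoot-side genes were AT3G16660 (-4.82), AT2G36630 (-4.54), AT1G64710 (-4.54), AT1G28660 (-4.50), AT1G51805 (-4.44), AT5G58390 (-4.44) and AT3G62820 (-4.40). AT1G51805 had nearly the same difference at P1.25, -4.47. BOR5, of the borate transporter family and named by the study's tables, had 4.69, 4.91 and 4.53 in root P0, against 9.99, 10.00 and 10.12 in shoot P0, a difference of -5.33 ± 0.24.

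On the root side the largest difference was that of AT5G52690, with 7.66, 7.67 and 7.39 in root P0, against 3.19, 3.16 and 2.72 in shoot P0, a difference of 4.55 ± 0.30 (adjusted p = 7.35e-08, limma). Its shoot P0 mean was above only 12.7% of all transcripts. Its neighbour AT5G52700, annotated as a copper transport family protein, had 9.69, 9.53 and 9.65 in root P0, against 5.25, 5.34 and 5.56 in shoot P0, 18.9-fold higher. Both belong to a run of 7 adjacent protein-coding genes on chromosome 5, AT5G52670 to AT5G52730, that were all called higher in root P0, at 1.07 to 4.55. Of these, AT5G52670 and AT5G52710 carry the same kind of annotation. The genes beside the run were AT5G52660 at -0.07 and AT5G52740 at -1.43, the second called higher in shoot. The run was found after values were seen, as were 3 shorter runs of at least 4 genes, which are AT5G22520 to AT5G22555 (6 genes, higher in root at 1.42 to 3.08), AT5G16970 to AT5G17010 (5 genes, higher in shoot, including the alkenal reductase AER) and AT1G51000 to AT1G51030 (4 genes, higher in root). Genes of such runs can be near copies that share hybridisation signal.

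**Figure D4:**
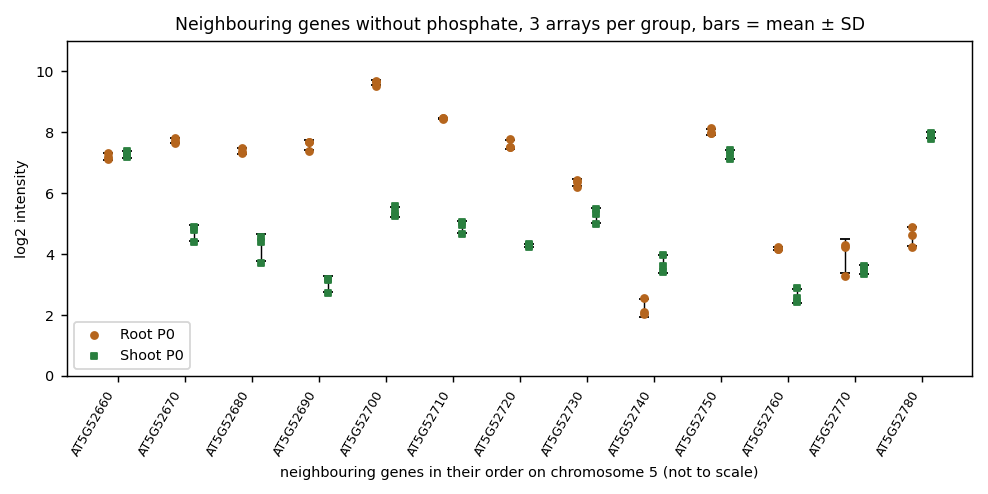
Log2 level of neighbouring genes on chromosome 5, in their order along it, with 1 point for each of 3 root P0 arrays and 3 shoot P0 arrays and bars for the mean and SD. The 7 genes from AT5G52670 to AT5G52730 have all root arrays above all shoot arrays, and AT5G52660 has both tissues at the same level.

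BGLU31, a beta-glucosidase, had 8.92, 9.09 and 9.13 in root P0, against 5.00, 5.30 and 5.57 in shoot P0, a difference of 3.76 ± 0.29, against 0.23 at P1.25, and was higher in root P0 than in root P1.25 by 4.37. AT5G40000, annotated as an AAA-type ATPase, differed by 3.82 ± 0.85, and AT1G52130, annotated as a mannose-binding lectin, by 3.76 ± 0.34. Both were higher at P0 than at P1.25 in both tissues, AT5G40000 by 4.82 in root and 3.78 in shoot, and AT1G52130 by 3.50 and 1.28. AT1G26250 (3.69) and AT1G26240 (3.62), the second annotated as a proline-rich extensin-like protein, were higher in root at both doses, with 4.94 and 3.79 at P1.25. The remaining large root-side differences were AT5G10040 (3.78), AT1G51010 (3.77), AT1G19530 (3.65), AT4G19720 (3.64) and AT3G01175 (3.62).

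The tissue difference at P0 was then tested against that at P1.25 as an interaction in the same limma fit. It was called as changed for 6562 transcripts, 17.1% of those tested, with 3113 (8.11%) above 0, where the root minus shoot value was higher at P0, and 3449 (8.98%) below 0. Without the third array of root P1.25 and that of shoot P1.25, 8001 were called. The count was 11126 with array weights and 3732 with a fold limit of 2. At P1.25 alone 6614 transcripts were called between the tissues, 17.2%, of which 2789 (7.26%) were higher in root and 3825 (9.96%) in shoot. Both doses gave the call on the root side for 1203 transcripts and on the shoot side for 1872. Of the 1203, 366 changed, 336 of them toward a smaller difference at P0, and the medians were 1.53 at P0 and 2.07 at P1.25. Of the 1872, 712 changed, 618 toward a smaller difference, and the medians were -1.71 and -2.41. Calls made at P0 but not at P1.25 numbered 938 on the root side, of which 453 changed, and 827 on the shoot side, of which 523 changed.

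Because these counts are chosen on the values they compare, the transcripts were also picked on the P20 arrays, which enter neither difference. Those arrays do enter the shared spread of the fit. A tissue difference present only at P0 cannot enter a set picked at P20. The paper also describes P20 and P1.25 as relatively close in its principal component analysis. Picking at P20 therefore favours transcripts with a smaller difference at P0 and is not neutral between the doses. The 2762 called higher in root P20 (7.19% of all) had a median of 0.86 at P0, 1.6 at P1.25 and 1.67 at P20. Of these, 1172 (42.4%) were called higher in root P0 and 2221 (80.4%) in root P1.25. The difference was called smaller at P0 than at P1.25 in 1159 and larger in 46. The 3662 called higher in shoot P20 (9.53% of all) had medians of -1.04, -1.79 and -1.79 in the same order of doses, with 1849 (50.5%) called higher in shoot P0 and 3134 (85.6%) in shoot P1.25. In 1466 the difference was smaller at P0 and in 105 it was larger. Transcripts that distinguish the tissues at P20 differed less between root and shoot at P0 on both sides, which the choice at P20 favours.

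In 22 transcripts with a root-side call at P0 and 29 with a shoot-side call at P0, the call at P1.25 was on the other side. AT3G25790 had 7.29, 7.36 and 7.47 in root P0, against 9.15, 9.06 and 8.89 in shoot P0, and at P1.25 it averaged 8.06 ± 0.76 in root P1.25, against 4.67 ± 0.34 in shoot P1.25 (SD, n = 3 each), a change of -5.05 ± 0.41 (adjusted p = 1.16e-05, limma). It was higher in shoot P0 than in shoot P1.25 by 4.36. Others that were higher in shoot P0 and in root P1.25 were AT5G02580 (-3.17 at P0 and 1.23 at P1.25), AT1G53610 (-2.10 and 1.76), AT3G48346 (-1.95 and 1.9), AT3G50610 (-1.85 and 1.72), AT3G44510 (-1.72 and 1.58) and AT4G12090 (-1.48 and 2.12). In all 6 the level in shoot P0 was above that in shoot P1.25 by a called difference, the lowest being 3.14 in AT3G50610.

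The opposite order, higher in root P0 and in shoot P1.25, was that of AT1G52342, with 7.08, 7.35 and 6.91 in root P0, against 4.96, 4.88 and 4.90 in shoot P0, and 3.81, 4.33 and 3.96 in root P1.25, against 6.81, 6.5 and 5.61 in shoot P1.25. It was higher in root P0 than in root P1.25 by 3.08 and lower in shoot by a log2 change of -1.39. RLP38 and RLP36, receptor-like proteins, differed by 1.95 and 1.37 at P0 and by -2.18 and -1.62 at P1.25. The P0 call of RLP38 was lost on leaving out any 1 of the 6 arrays (1.87 to 2.03), and that of RLP36 without root P0 replicate 2 (1.16) or shoot P0 replicate 1 (1.19). The subtilase SBT3.3 (1.56 at P0 and -1.47 at P1.25), PGL1 (1.86 and -1.43) and AT2G25200 (1.95 and -1.82) had the same order.

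Among the other largest changes toward root were ASN1, an asparagine synthetase induced by darkness and low sugar, at 4.16 ± 1.11, AT1G58225 at 4.03 ± 0.89, AT4G17660 at 3.59 ± 0.69 and AT3G28510 at 3.57 ± 1.26. ASN1 differed by -2.85 at P1.25, while its difference of 1.31 ± 0.79 at P0 was not called (adjusted p = 0.253, limma), and was called when the fit used the 6 P0 arrays alone or weighted the arrays. AT4G12545 went the other way with 4.41 ± 0.32 in root P0, against 4.2 ± 0.18 in shoot P0 (SD, n = 3 each) and overlapping arrays at P0, while its difference was 4.52 at P1.25, and it was lower in root P0 than in root P1.25 by a log2 change of -4.50.

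WRKY factors, a plant family that regulates defence and nutrient responses, were gathered after values were seen. Of 28 measured, 11 were called higher in root P0 and 1 in shoot P0, beside 5.63% and 7.1% of all transcripts, with a median of 0.70. At P1.25, 4 were called higher in root and 6 in shoot, with a median of -0.04. The tissue difference was called as changed in 6, all of them toward root, a share near the 17.1% of all transcripts. Compared with P1.25, 20 were called higher in root P0 and 10 in shoot P0. WRKY41 had 8.93, 8.62 and 8.73 in root P0, against 5.16, 5.03 and 5.48 in shoot P0, a difference of 3.54 ± 0.34 at P0 beside 0.39 at P1.25. WRKY71 differed by 2.24 ± 0.34, and WRKY59 and WRKY72 differed by 2.77 ± 0.38 and 2.69 ± 0.58 with calls on the same side at P1.25. WRKY22 was the member called higher in shoot P0, at -1.01 ± 0.35, and it lost the call under quantile normalization (-0.98) and without root P0 replicate 2 (-0.94) or shoot P0 replicate 2 (-0.97). Of the 28 factors 21 were named only by the study's tables, whose rows were chosen on these arrays for change at P0.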

How the data were processed

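Total RNA of root and shoot was measured on 18 AraGene 1.0 ST arrays, 3 for each of 6 groups. The deposited values are log2 expression levels that the authors made by RMA (background correction, quantile normalization and probe summary) in Partek Genomics Suite 6.6. The series matrix was used as given, for 38408 transcripts. A genome build is not given in the sources used here, so no coordinates are printed. Depth has no meaning for arrays, and the number of arrays limits the precision.

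Group means were fitted on all 18 arrays with limma 3.58.1 (lmFit, eBayes) in R 4.3.3, with root P0 minus shoot P0 and its difference from root P1.25 minus shoot P1.25 as contrasts, and p-values were adjusted by Benjamini-Hochberg over all transcripts. A tissue difference, or a difference between doses within a tissue, was called at adjusted p under 0.1 and more than 2-fold. A change of the tissue difference between doses was called at adjusted p under 0.1. The methods describe a two-way ANOVA, and that model without moderation was run as an alternative. Other alternatives changed the error model, arrays in the fit, transcripts tested, scaling, thresholds and replicates left out. On simulated data, 79% of differences of 1.5 log2 units and 98% of 3 log2 units were recovered between root P0 and shoot P0, with 6 false calls. For the change between doses, 59% and 93% were recovered, with 13 false calls. The simulated arrays had independent normal noise around a common mean of each transcript, with changes planted in root P0 for a small set of transcripts. They held no other tissue differences and no deviating arrays. The false calls there therefore do not give the number of false calls among the 4891 and 6562 reported here.

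Names came from GEO's platform table (16722 transcripts with 1 gene, 813 with several, which were not named) and, for 1119 further transcripts, from the study's gene tables, whose values were not used. The other 19754 are unnamed here. Of all transcripts, 7132 share their values with another. The text names the 12 largest differences on each side among called transcripts with 1 platform gene, up to 4 called members of each list (or the 2 of smallest adjusted p), the 8 largest changes between doses on each side, up to 6 genes called in opposite directions at the doses on each side, and reference genes, plus markers and families as stated. Members, gene lists and tests were chosen with earlier results of these data known.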

Additional observations from a re-analysis of the deposited data

Results flagged for a closer look

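The root minus shoot difference at P0 was not the same as that at P1.25 for 76 of the genes named here, in a test of the difference itself (interaction in the limma fit, Benjamini-Hochberg adjusted p under 0.1). The values below are the difference at P0 minus the difference at P1.25 on the log2 scale, 27 above 0 and 49 below 0. With 3 arrays in every group, no test of single arrays was run. Leaving out each P0 or P1.25 array in turn kept 64 to 72 of the 76 calls. The 14 genes lost in at least 1 such fit were AT2G36630, AT3G01175, AT3G28510, AT4G19720, BGLU34, CCA1, EXPA18, FER1, GUN4, HPR, NAS3, PORB, RHD2 and SLAC1.

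Values above 0 in genes higher in shoot at P1.25 mean a smaller shoot excess at P0. They were 1.13 for HPR, 1.24 for PORB, 1.33 for GUN5, 1.92 for CH1, 1.73 for GUN4, 1.74 for SPCH, 1.12 for FER1 and 1.97 for CCA1. Others above 0 came with a root excess at P0 that was called, apart from ASN1. They were 2.63 for AT5G52690, 3.14 for AT5G52700, 2.79 for AT1G51010, 3.52 for BGLU31, 2.22 for AT1G52130, 0.88 for AT4G19720 and 1.87 for AT3G01175, then 4.47 for AT1G52342, 4.16 for ASN1, 4.13 for RLP38, 4.03 for AT1G58225, 3.76 for AT2G25200, 3.59 for AT4G17660, 3.57 for AT3G28510, 3.04 for SBT3.3, 3.29 for PGL1, 2.99 for RLP36, 3.15 for WRKY41 and 2.26 for WRKY71.

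Values below 0 in root genes, where the root excess was smaller at P0, were -2.93 for CASP1, -2.82 for PER64, -1.27 for GSO1, -1.98 for MYB92, -1.57 for RHD2, -1.07 for EXPA18, -1.99 for CYP705A12, -2.68 for CYP71A16, -3.07 for THAD1, -2.66 for BGLU35, -2.39 for BGLU34 and -3.37 for BGLU21. To these came -4.31 for AT4G12545.

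Below 0 with a shoot excess at P0 were the phosphate starvation genes, with -3.25 for PHT1;7, -2.73 for PHT1;5, -2.26 for PHT1;8, -2.00 for PHT1;4, -1.92 for SPX3, -1.6 for IPS1, -3.11 for GDPD6, -2.56 for PEPC1, -1.63 for MGD2, -1.86 for MGD3, -4.67 for PAP5, -3.71 for RNS1, -4.22 for PAP24 and -3.53 for PAP14. Anthocyanin, starch and sugar genes gave -3.53 for GSTF12, -3.36 for AT5MAT, -3.48 for UF3GT, -4.69 for SWEET13, -1.1 for SWEET11, -1.61 for SWEET10 and -1.12 for APL3. Further shoot-side genes gave -4.17 for AT1G09500, -3.08 for AT2G34810, -1.0 for AT2G36630, -1.38 for AT1G28660, -1.06 for SLAC1, -1.09 for PDF1, -1.37 for NAS3 and -3.95 for BOR5. Genes with opposite calls at the doses gave -5.05 for AT3G25790, -4.40 for AT5G02580, -3.86 for AT3G48346, -3.86 for AT1G53610, -3.57 for AT3G50610, -3.30 for AT3G44510 and -3.61 for AT4G12090.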

How the results depend on the processing

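The count of 4891 calls between root P0 and shoot P0 stayed within 1.5 times under every alternative run but 1, between 4503 without the lowest 25% of transcripts and 5209 with array weights. Without a fold limit it was 12681, of which 6874 were higher in root and 5807 in shoot. Leaving out each P0 array in turn gave 4786 to 4940. The 6562 changes of the tissue difference became 3732 with a fold limit of 2 and 11126 with array weights. Leaving out each array in turn gave 5108 to 8021, and leaving out the third array of root P1.25 and that of shoot P1.25 together gave 8001. Why array weights raised the count was not tested.

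Same-numbered root and shoot arrays did not deviate together at P0 (correlation 0.03, -0.02 and 0.04 over transcripts). With the replicate number as a block the counts were 4906 and 6976, no P0 call of the named genes was gained or lost, and 73 of the 76 changes were kept (not AT2G36630, GUN4 or PORB).

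Over 1869 pairs of a named gene and an alternative, the P0 difference kept its direction in all, and its side of the threshold in 1821. A call was lost in 41 pairs (11 genes) and gained in 7 (4 genes). Shares of promoters holding given motifs were not run. Array number limits precision, since 3 arrays against 3 cannot go below 0.1 in a two-sided exact test.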

Other observations

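Genes known to respond to low oxygen were gathered after the values had been seen. Of 21 measured of 30 listed, 12 were called higher in root P0 and none in shoot P0, and 15 were called higher in root P1.25 and none in shoot P1.25, with medians of 1.73 at P0 and 1.63 at P1.25. In 4 of the 21 the tissue difference was called as changed, a share near the 17.1% of all transcripts. Over all transcripts, 5.63% were called higher in root P0 and 7.26% in root P1.25. ACO1, described above, is a member. Its shoot P1.25 arrays had 7.63, 7.49 and 9.69, so the third array narrowed its tissue difference at P1.25. How far the P1.25 counts and median of this group rest on that array was not tested.

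Of other families gathered in the same way, 29 beta-glucosidases held 10 called higher in root P0 and 10 in shoot P0, and 55 UDP-glycosyltransferases held 5 and 13. The shares over all transcripts were 5.63% in root P0 and 7.1% in shoot P0, and 7.26% in root P1.25 and 9.96% in shoot P1.25. Expansins, which loosen cell walls, had 4 in root P0 and 1 in shoot P0 of 25, against 8 in root P1.25 and 3 in shoot P1.25. AGAMOUS-like MADS-box factors had 4 and 1 of 66 at P0, close to or below the shares over all transcripts. Nuclear factors for photosystem assembly and the plastid NDH complex had none in root P0 and 8 in shoot P0 of 23, against 14 in shoot P1.25. The difference changed in 10, beside 17.1% of all transcripts, each time toward a smaller difference at P0.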
